A study of Mus musculus with 6 samples.

Results

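Sugar enters the hepatocyte and is committed to breakdown through a short series of steps, and the 8 genes described here encode proteins that carry out or control them. They are Slc2a2, Gckr, Gpi1, Pfkl, Pfkfb1, Pfkfb3, Pklr and Khk, taken by gene symbol from the 16123 genes of the deposited liver RNA-seq table. All 8 were found once each, and all 8 had a mean of at least 1 FPKM (fragments per kilobase of transcript, scaled to library size), the level above which 10266 genes were tested. The table held 6 libraries of total RNA from the livers of healthy adult mice, 3 sedentary without treadmill training and 3 trained. The trained mice ran at moderate intensity for 6 weeks, each covering 22 km, and were killed 24 h after the last session. Tissue was collected after perfusion through the heart with phosphate buffered saline. None of the sources used here states strain, sex, feeding state or time of day. The series title and design text ask how such exercise affects liver metabolism, with protein lactylation, a modification derived from lactate, as one of its subjects.

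The liver takes up glucose through GLUT2, the facilitative transporter encoded by Slc2a2, which also lets glucose out. The regulatory protein encoded by Gckr acts at the next step, the phosphorylation of glucose, and responds to fructose phosphates. Gpi1 isomerises glucose 6-phosphate, Pfkl encodes the liver subunit of phosphofructokinase, and the bifunctional enzymes encoded by Pfkfb1 and Pfkfb3 make and break the phosphofructokinase activator fructose 2,6-bisphosphate. Pklr encodes the pyruvate kinase of liver and red cells, and Khk encodes ketohexokinase, which phosphorylates fructose and so bypasses phosphofructokinase. Several of these genes are known targets of ChREBP, the glucose-responsive transcription factor encoded by Mlxipl, which binds with its partner Mlx to carbohydrate response elements.

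Library totals lay between 17941303 and 18371949 counts. The 6 libraries were labelled as separate samples, but those of a group were very alike, with a common biological coefficient of variation of 1.84%, so the p-values measure the spread between these libraries only. The libraries were liver-like by their markers. The 10 hepatocyte markers summed to between 76094 and 77524 FPKM in the sedentary and between 75642 and 76268 FPKM in the exercise libraries. The 13 Kupffer cell and macrophage markers summed to between 478 and 490.5 FPKM in the sedentary and between 406 and 410 FPKM in the exercise libraries, with 11 of them lower. The 11 liver endothelial markers summed to between 130 and 131 FPKM and between 144 and 152 FPKM in the same order, with 4 of them higher. By the test described below, 19.0% of all tested genes were lower and 19.1% higher. Of 12 pancreatic acinar markers, 10 were at 0 in every exercise library and had reads in every sedentary library, at mean FPKM of up to 2.45 (Amy2a5, an amylase gene). No marker of these 4 lists was at 0 in every library, and their part in the results below was not tested. In bulk tissue, fewer cells of a type and less RNA per cell cannot be told apart.

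For the 4 members that passed the test described below, the sequence upstream of each holds a match to at least 1 of 7 transcription factor motifs searched on both strands in the 250 bases before every annotated start. These sequences are shown because the 4 genes were higher in exercise. They are from RefSeq, build GRCm38.p6, read 5′ to 3′ on the gene's own strand, and with the motif matches in capitals. The Pklr window lies before the second of its annotated starts, the one known to be used in liver, and is given as far as the next annotated exon, chr3:89136373-89136571, plus strand. Its capitals mark CACGNG followed after 5 bases by CNCGNG, the form of a carbohydrate response element, at positions −170 to −154 from that start. The Slc2a2 window is chr3:28697653-28697902, plus strand, and its capitals mark ATTGATT, a form of the Onecut site. The Khk and Gckr windows overlap exons of these genes in the GENCODE annotation of the same build, so only 30 bases around the matches are given. They are chr5:30921481-30921510 for Khk, with the E-box CACGTG and the HNF1 element GTTAAT in capitals, and chr5:31297492-31297521 for Gckr, with GTTAAT alone, both on the plus strand.
Pklr: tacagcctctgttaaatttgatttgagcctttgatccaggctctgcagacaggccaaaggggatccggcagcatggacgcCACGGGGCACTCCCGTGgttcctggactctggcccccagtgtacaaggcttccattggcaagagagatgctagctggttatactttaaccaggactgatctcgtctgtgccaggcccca
Slc2a2: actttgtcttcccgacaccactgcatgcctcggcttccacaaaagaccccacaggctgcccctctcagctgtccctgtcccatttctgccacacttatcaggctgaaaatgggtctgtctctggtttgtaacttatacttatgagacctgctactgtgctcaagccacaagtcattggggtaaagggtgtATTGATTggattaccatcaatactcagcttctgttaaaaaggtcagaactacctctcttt
Khk: tccccgtCACGTGacaccGTTAATctggcg
Gckr: cagggttcttagGTTAATcatctccatggc

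All 8 members matched the promoter table, with 13 annotated windows between them. Of all 32851 windows, 0.28% held the carbohydrate response element, 6.02% the E-box, 6.43% GTTAAT and 2.61% ATTGATT. Outside the sequences printed, Pfkfb3 had an E-box in one of its windows and Pfkfb1 had GTTAAT in one of its windows. No member's window held the HNF4 element CAAAGTCCA (0.384% of all windows), the FOXO site TGTTTAC (3.17%) or the sterol response element TCACNCCAC (1.05%). The matches are descriptions of these letters, and no binding was measured.

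Of the 8 members, 4 were higher in exercise, none was lower and 4 did not pass (edgeR quasi-likelihood test with TMM scaling, Benjamini-Hochberg adjustment over all 10266 tested genes, threshold 0.05). Khk, Slc2a2, Pklr and Gckr were the 4, and their rises were small, between 1.05-fold and 1.17-fold. The background of such calls was wide: 38.1% of all tested genes passed, 19.1% higher and 19.0% lower. The members' median log2 fold change was 0.09, against −0.00062 over all tested genes and a median absolute value of 0.24 among the genes that passed. No member was lower at an unadjusted p under 0.05 either, nor by DESeq2 or limma. The number of members called higher was 6 with library totals in place of TMM scaling, 3 by DESeq2, and 0 in a test against a 1.2-fold change. It was also 0 when each group was summed to 1 library and a biological variation of 0.1 or 0.2 was assumed.

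**Figure D1:**
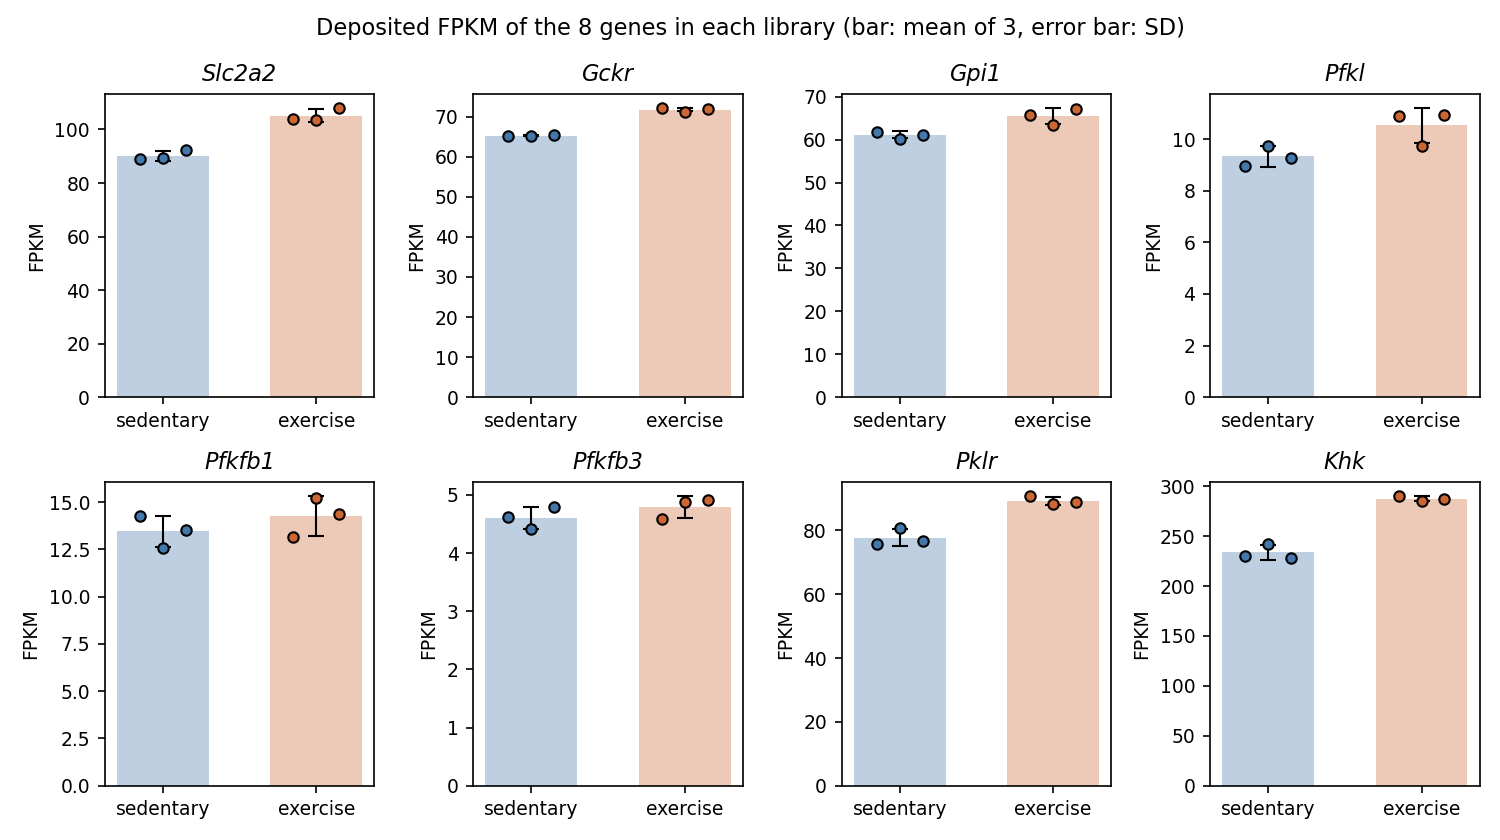
Deposited FPKM (vertical axes, starting at 0) of the 8 genes in the 3 sedentary and the 3 exercise libraries; points are libraries, bars are means and error bars are SD. The points of Slc2a2, Gckr, Gpi1, Pklr and Khk do not overlap between the groups, and those of Pfkl, Pfkfb1 and Pfkfb3 do.

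By deposited FPKM the groups did not overlap, with exercise higher, in 5 members, the 4 above and Gpi1, where 36.6% of all tested genes did the same. On that scale the median log2 difference of all tested genes was 0.06, with a pseudocount of 1. The order of the members by level was the same in both groups, with no overlap between neighbours within a group. It ran from Khk through Slc2a2, Pklr, Gckr, Gpi1, Pfkfb1 and Pfkl to Pfkfb3. By mean FPKM, Khk stood at percentile 96.5 of the tested genes, Slc2a2 at 91.8, Pklr at 91.0, Gckr at 89.4 and Gpi1 at 88.9. Pfkfb1 stood at percentile 65.2, Pfkl at 56.1 and Pfkfb3, an isoenzyme made in many tissues, at 34.2.

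Slc2a2 (gene ID 20526, chromosome 3, 28697903 to 28728361 in GRCm38.p6), the glucose transporter gene, was at 88.9, 89.3 and 92.4 FPKM in the sedentary libraries and at 104, 103.6 and 108 FPKM in the exercise libraries. Every exercise library was above every sedentary one. The means were 90.2 ± 1.93 and 105 ± 2.45 FPKM (SD, n = 3). By TMM-scaled counts Slc2a2 rose 1.11-fold (log2 fold change 0.15, SE 0.03, edgeR adjusted p = 1.54e-05). The call held in all 6 fits that left out a library. In the list of 14 glucose transporter genes, 4 others were tested, of which 2 fell and 2 did not pass. Slc2a5, the fructose transporter, fell 1.59-fold from 2.89 ± 0.315 to 1.94 ± 0.307 FPKM (SD, n = 3), and Slc2a9, a urate transporter, fell by 0.27 on the log2 scale. Slc2a1, the transporter of most other tissues, missed the threshold at means of 4.53 and 4.83 FPKM (log2 fold change 0.02, edgeR adjusted p = 0.908).

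Gckr (gene ID 231103, chromosome 5, 31297266 to 31327302), which encodes that regulatory protein, was at 65.2, 65.3 and 65.4 FPKM in the sedentary libraries and at 72.1, 71.2 and 71.9 FPKM in the exercise libraries. The libraries of each group lay close together and the groups were apart. By TMM-scaled counts the rise was 1.05-fold (log2 fold change 0.07, SE 0.03, adjusted p = 0.0402). The call ended whichever of the 6 libraries was left out, with adjusted p from 0.0665 without exercise replicate 2 to 0.0885 without sedentary replicate 1, and by DESeq2 (adjusted p = 0.126). Of the hexokinase genes, Hk1, Hk3 and Adpgk did not pass, and Hk2 and Hkdc1 were below 1 FPKM and not tested.

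Gpi1 (gene ID 14751, chromosome 7, 34201327 to 34230336), the isomerase gene, was at 61.9, 60.2 and 61.2 FPKM in the sedentary libraries and at 65.8, 63.5 and 67.2 FPKM in the exercise libraries. These values did not overlap, but the TMM-scaled difference was within its error (log2 fold change 0.02, SE 0.03, 95% interval −0.03 to 0.08, edgeR adjusted p = 0.529). With library totals the difference passed (log2 fold change 0.10, adjusted p = 0.003). Of the exonic bases of Gpi1, 11.5% overlap the gene Gm26762 on the other strand, and whether counting used strand is not given in the sources used here.

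Pfkl (gene ID 18641, chromosome 10, 77986947 to 78009807), the liver phosphofructokinase gene, was at 8.96, 9.75 and 9.29 FPKM in the sedentary libraries and at 10.9, 9.75 and 10.95 FPKM in the exercise libraries. Exercise replicate 2 was level with the highest sedentary library, and the other two exercise libraries were above all sedentary ones. The difference did not pass (log2 fold change 0.10, SE 0.05, 95% interval −0.0054 to 0.20, edgeR adjusted p = 0.131). Without exercise replicate 2 it did (log2 fold change 0.15, adjusted p = 0.03), and with library totals as well (0.18, adjusted p = 0.00476). Pfkm, the muscle subunit gene, fell 1.15-fold, from 8.27 ± 0.307 to 7.58 ± 0.195 FPKM (SD, n = 3). The 2 subunit genes stood at similar levels per length in the sedentary libraries, where the mean of Pfkl was 9.33 FPKM. They were further apart in the exercise libraries, where it was 10.5 FPKM. The Pfkm call ended with library totals (log2 fold change −0.12, adjusted p = 0.105), on the TPM scale (−0.0819, 0.152), with limma on FPKM (0.068 and 0.0697), by DESeq2 (0.0844) and without sedentary replicate 2 (0.058). Pfkp was below 1 FPKM and not tested. Fbp1, which catalyses the opposite step in gluconeogenesis, was far more abundant at 695 and 691 FPKM, with overlapping groups, and fell 1.06-fold by TMM-scaled counts, a call lost with library totals (log2 fold change −0.0027, adjusted p = 0.929) and turned to a difference of 0.03 on the TPM scale (0.565). A ratio of 2 genes' counts within a library does not depend on the scaling between libraries. The ratio of Pfkl to Fbp1 counts was 0.0371, 0.0420 and 0.0397 in the sedentary and 0.0458, 0.0412 and 0.0474 in the exercise libraries, and the groups overlapped (exact two-sided permutation p = 0.2).

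Neither bifunctional enzyme gene passed the test. Pfkfb1 (gene ID 18639, chromosome X, 150587445 to 150643878), the liver form, was at 14.25, 12.6 and 13.5 FPKM in the sedentary libraries and at 13.2, 15.2 and 14.4 FPKM in the exercise libraries. The groups overlapped (log2 fold change 0.01, SE 0.06, 95% interval −0.12 to 0.14, edgeR adjusted p = 0.916). Pfkfb3 (gene ID 170768, chromosome 2, 11471430 to 11554071), a form with high kinase activity, was at 4.62, 4.41 and 4.79 FPKM in the sedentary and at 4.58, 4.87 and 4.92 FPKM in the exercise libraries. The groups overlapped here too (log2 fold change −0.04, SE 0.06, 95% interval −0.17 to 0.08, adjusted p = 0.604). Of the other 2 forms, Pfkfb2 rose 1.11-fold, from 4.93 ± 0.558 to 5.83 ± 0.263 FPKM (SD, n = 3, edgeR adjusted p = 0.0276), and Pfkfb4 was at 0.32 and 0.28 FPKM and was not tested. The Pfkfb2 call ended by DESeq2 (adjusted p = 0.142), with limma on FPKM (0.0547 and 0.0661) and in 4 of the 6 fits that left out a library. Those were the fits without sedentary replicate 1 or 3 or exercise replicate 1 or 2, and its log2 fold change ran from 0.0974 without sedentary replicate 1 to 0.23 without sedentary replicate 2. Pfkfb1 had 1.21, 1.05 and 1.11 times the counts of Pfkfb3 in the sedentary and 1.11, 1.22 and 1.17 times in the exercise libraries (exact permutation p = 0.4). The transcript length implied by count and FPKM together varied by 4.99% between libraries for Pfkfb1 and by 4.40% for Pfkfb3. For the other members it varied by at most 1.42%. Count and FPKM thus compare the libraries less alike for these 2 genes, and which measure is the less certain was not tested. Of the exonic bases of Pfkfb1, 3.06% overlap Apex2 on the other strand, which was at 3.70 and 3.82 FPKM on average.

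Pklr (gene ID 18770, chromosome 3, 89136122 to 89146815), the liver pyruvate kinase gene, was at 75.7, 80.9 and 76.6 FPKM in the sedentary libraries and at 90.65, 88.2 and 88.8 FPKM in the exercise libraries. All exercise libraries were above all sedentary ones. It rose 1.09-fold by TMM-scaled counts (log2 fold change 0.13, SE 0.03, edgeR adjusted p = 0.000249), and the call held in all 6 fits that left out a library. Pkm, the pyruvate kinase gene of most other tissues, fell 1.17-fold, from a mean of 346.7 to 307 counts per library, a call lost with library totals (log2 fold change −0.15, adjusted p = 0.0523), by DESeq2 (0.0542) and on the TPM scale (−0.10, 0.0958). Of the exonic bases of Pklr, 22.0% overlap Hcn3 on the other strand, but Hcn3 was at 0.0367 and 0.0433 FPKM on average. Red cells use the same gene, and the 7 erythroid markers summed to between 381 and 393 FPKM in the sedentary and between 335 and 352 FPKM in the exercise libraries, with 4 of 5 tested lower. Their part in the Pklr result was not tested. Pck1, a gluconeogenic gene that opposes this step, had a log2 fold change of 0.46. Within libraries the ratio of Pklr to Pck1 counts went from 0.0874, 0.101 and 0.0887 to 0.0730, 0.0717 and 0.0739, lower in all 3 exercise libraries by 1.26-fold (exact permutation p = 0.1). That p is the smallest that 3 against 3 libraries allow, and it was 0.167 after adjustment over the 5 ratios computed.

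**Figure D2:**
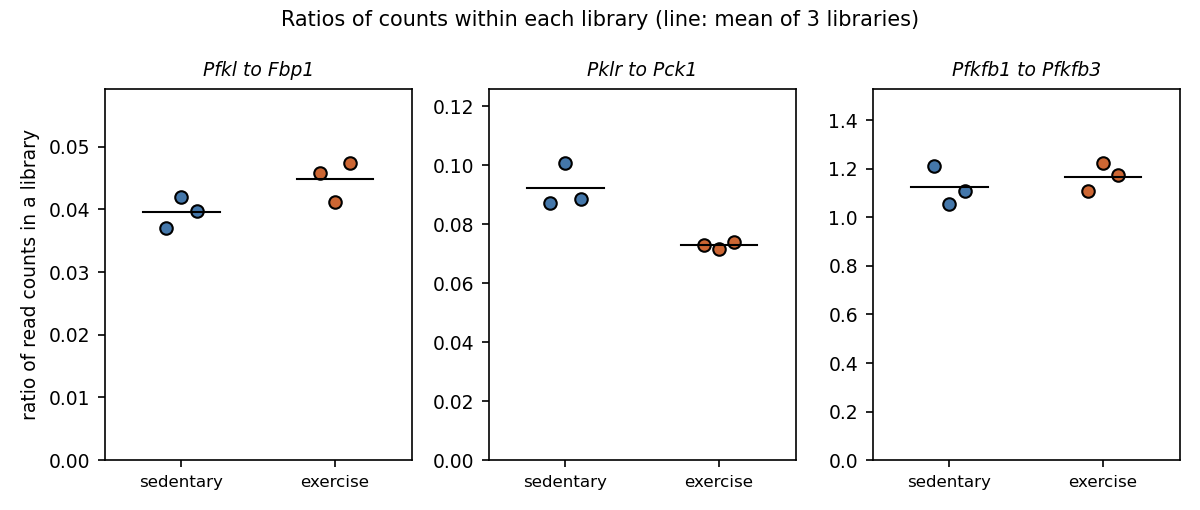
Ratio of the read counts of 2 genes within each library (vertical axes, starting at 0) for 3 pairs, in sedentary and exercise libraries; points are libraries and lines are means. The ratio of Pklr to Pck1 is lower in all 3 exercise libraries, while the other two overlap between the groups.

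Khk (gene ID 16548, chromosome 5, 30921436 to 30931248), the fructokinase gene, was both the most abundant member and the one with the largest rise. It was at 230, 242.5 and 228 FPKM in the sedentary libraries and at 289.7, 285 and 287 FPKM in the exercise libraries, with every exercise library above every sedentary one. It rose 1.17-fold by TMM-scaled counts (log2 fold change 0.23, SE 0.03, edgeR adjusted p = 2.28e-10), with log2 fold changes of 0.21 to 0.26 when a library was left out. In the list of fructose and polyol genes, 3 of the 9 other tested genes rose, 2 fell and 4 did not pass. Among all tested genes, 19.1% were higher and 19.0% lower. Tkfc, the triokinase gene, rose by 0.14 on the log2 scale from 142 ± 1.05 to 164 ± 3.84 FPKM (SD, n = 3). Sord, which makes fructose from sorbitol, rose 1.11-fold from 675 ± 5.97 to 787 ± 7.76 FPKM, whereas Akr1b3, the aldose reductase that makes sorbitol, fell 1.43-fold at a level of 8.24 and 6.04 FPKM.

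**Figure D3:**
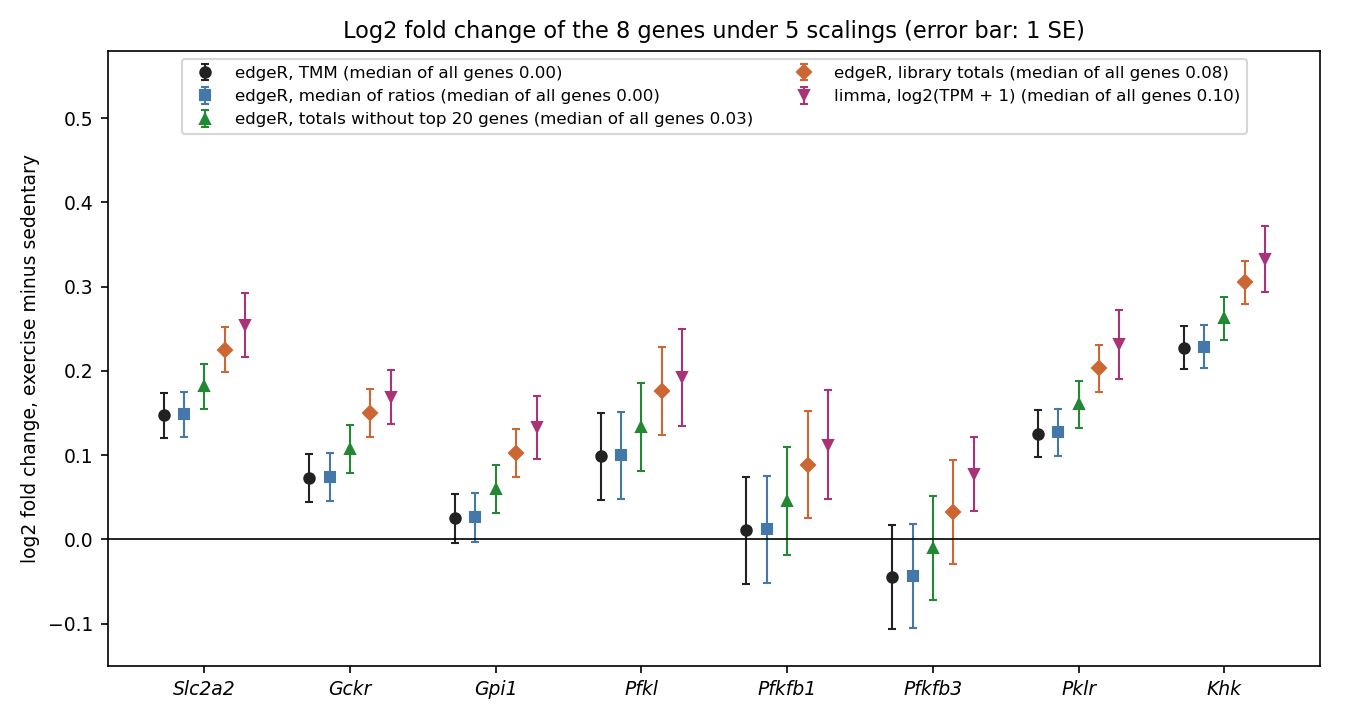
Log2 fold change, exercise minus sedentary, of the 8 genes (vertical axis) under 5 scalings; error bars are 1 SE, and the legend gives the median of all tested genes under each. Khk, Slc2a2, Pklr, Gckr, Gpi1, Pfkl and Pfkfb1 lie above 0 under each of the 5. With TMM and with median of ratios scaling, Gpi1 and Pfkfb1 do so by less than 1 SE. The same holds for Pfkfb1 with totals without the 20 most abundant genes. Pfkfb3 lies below 0 under 3 of the 5.

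Library totals put the median of all tested genes at 0.08 and the TPM scale put it at 0.10, which moved every member up by about as much. The split of all calls moved with it, from 1961 higher and 1952 lower to 3536 and 1203 with library totals, and to 3542 and 881 on the TPM scale. Leaving the 20 most abundant genes out of the totals gave 2583 and 1575, and the counts were 2702 and 1081 with limma on log2(FPKM + 1) and 2596 and 1028 with a pseudocount of 0.1. Relative to the median of all tested genes under the same scaling, the log2 fold change of Khk was 0.23 with TMM, 0.23 with library totals and 0.24 on the TPM scale.

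The 10 gene lists cover sugar metabolism and also transcription factors, ChREBP targets and genes that respond to low oxygen. They held 103 genes of the table outside the 8 members, of which 86 were tested. Of these 86 genes, 28 were higher and 19 lower, with a median log2 fold change of 0.04. Over all tested genes, 19.1% were higher and 19.0% lower. With library totals the counts among the 86 were 43 and 10. In the list of isomerase, aldolase and lower glycolysis genes, 3 of 10 other tested genes rose and 3 fell. Eno1, an enolase, and Aldoa rose 1.12-fold each. Tpi1, the triose phosphate isomerase gene, fell 1.15-fold, from a mean of 251 to 230 FPKM, a call lost on the TPM scale (log2 fold change −0.0902, adjusted p = 0.0808). Gapdh did not pass (log2 fold change −0.02, adjusted p = 0.458). Of the 7 gluconeogenic genes that act against these steps, all tested, 3 rose, 1 fell and 3 did not pass. G6pc rose 1.40-fold from 126 ± 2.13 to 186 ± 4.42 FPKM, Pck1 rose 1.38-fold from 863 ± 36.6 to 1253 ± 20.7 FPKM, and Slc37a4, the transporter that feeds G6pc, rose 1.15-fold.

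**Figure D4:**
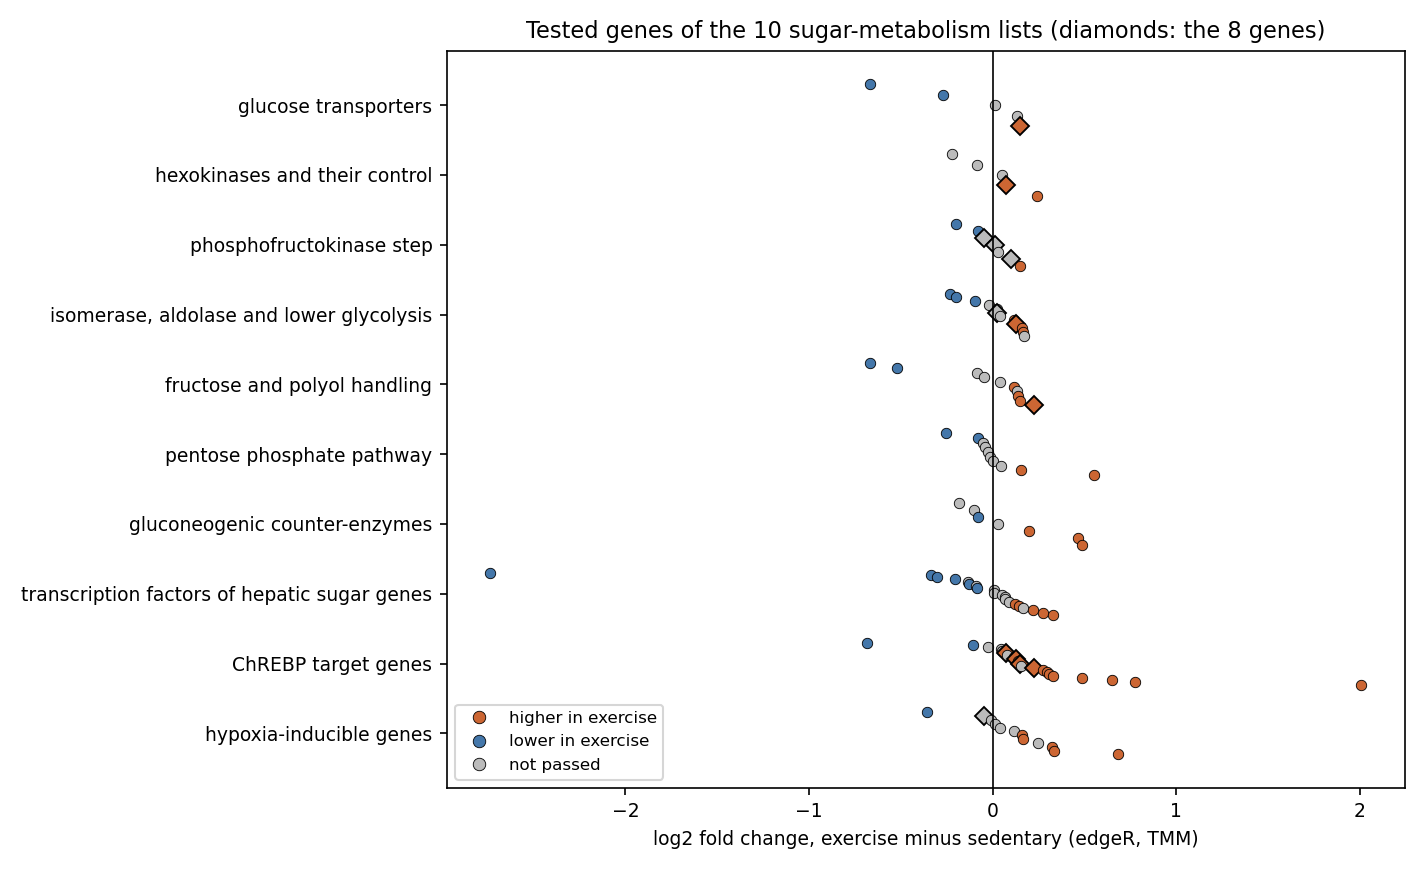
Log2 fold change, exercise minus sedentary (horizontal axis, edgeR with TMM), of the tested genes in 10 lists (rows); each point is a gene, colour gives its call and diamonds are the 8 genes. The called members lie between 0.07 and 0.23, inside the range of the ChREBP target list, and Onecut1 lies far to the left at −2.73.

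Of the 20 tested transcription factor genes in the lists, 5 were higher, 6 were lower and 9 did not pass. Among all tested genes the shares were 19.1% higher and 19.0% lower. Mlxipl, which encodes ChREBP, was at 84.95, 87.1 and 80.5 FPKM in the sedentary libraries and at 109, 111 and 114 FPKM in the exercise libraries, a rise of 1.26-fold (log2 fold change 0.33, SE 0.03, edgeR adjusted p = 2.27e-15). Its partner gene Mlx did not pass (0.07, adjusted p = 0.32). Hnf4a, a hepatocyte nuclear receptor gene, rose 1.21-fold and the homeobox gene Prox1 rose by 0.22 on the log2 scale. Onecut1, which encodes a factor first known for binding the Pfkfb1 promoter, fell 6.65-fold, from 10.6, 9.92 and 10.3 FPKM to 1.76, 1.73 and 1.39 FPKM. Pfkfb1 overlapped between the groups, and none of its windows held the Onecut motif searched. Slc2a2, whose window above holds this motif, as did 2.61% of all windows, was higher in exercise. Any link of Onecut1 to these 2 genes was not tested. Foxa2 and Foxo1 fell 1.26-fold and 1.23-fold, the Foxo1 call being lost on the TPM scale (adjusted p = 0.0759) and with limma on log2(FPKM + 0.1) (0.0559). Srebf1 fell 1.06-fold, a call lost with library totals (log2 fold change −0.0069, adjusted p = 0.862), by DESeq2 (0.0658) and without sedentary replicate 3 (0.113), and turned to a difference of 0.03 on the TPM scale (0.589).

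All 4 called members stand in the list of ChREBP target genes, together with 17 other tested genes. The members that did not pass are not in it. As the list was chosen with earlier results of these data known, this overlap is a description only. Of the 17 other genes, 10 rose, 2 fell and 5 did not pass, with a median log2 fold change of 0.16. Mlxipl itself is among the 10, and 19.1% of all tested genes were higher. Txnip, a glucose-induced inhibitor of thioredoxin, rose 1.24-fold from 26.3 ± 0.924 to 34.2 ± 0.754 FPKM (SD, n = 3). Scd1, a fatty acid desaturase gene, rose 1.71-fold and Me1, which encodes malic enzyme, rose 1.57-fold. Thrsp, a lipogenic target, fell 1.61-fold. Members of the list are also controlled by other factors, and no measure of ChREBP activity was analysed here.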

How the data were processed

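Liver RNA, labelled as 3 samples per group, was sequenced with paired reads (DNBseq). Per the labels' protocols, low-quality, N-rich and short reads were removed. The submitters' processing notes name GRCm38.p6, cutadapt, featureCounts and MultiQC, without versions. The aligner is not given in the sources used here. The same holds for the annotation and the strand setting. Per the file headers, the authors deposited a read count, an FPKM and a TPM for each gene and library. The deposited counts were estimated counts, since 1165 of 16123 genes had one that was not whole, though all 8 members had whole counts. The authors' FPKM and TPM values were used as deposited, and the 6 columns of averages were not used.

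Counts were rounded and tested with edgeR 4.0.16 in R 4.3.3 (TMM, quasi-likelihood F test, two-sided, no covariates) over the 10266 genes whose mean FPKM reached 1, with Benjamini-Hochberg adjustment. Sedentary libraries had TMM factors of 0.972 to 0.977, exercise libraries 1.03. Fold changes are exercise over sedentary with a prior count of 0.125, and the SE is the log2 fold change over the square root of F. Alternatives used DESeq2 1.42.0, limma 3.58.1 (pseudocounts of 1 and 0.1), other scalings and filters, a replicate block, and each library left out.

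The 8 members, the 10 sugar-metabolism and related lists, the 14 marker lists, the motifs and the ratios were chosen with earlier results of these data known. Besides the members, the text names the 4 genes of each list with the smallest p past the threshold, preset counterparts of the members, the gene closest to each member over the libraries (some genes under these rules are not reported here), and a few list members chosen after their values were seen (Slc2a1, Adpgk, Akr1b3, Gapdh, Mlx, Foxa2, Foxo1, Ndrg1, Amy2a5, Cela1). The replicate numbers of the titles did not pair the libraries. Gene coordinates are from RefSeq, counted from 1.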

Additional observations from a re-analysis of the deposited data

How the results depend on the processing

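Of the 20 alternatives, Khk, Slc2a2 and Pklr kept their direction in all 20 and passed in 17. The 3 that ended these calls were the test against a 1.2-fold change (log2 fold changes 0.23, 0.15 and 0.13) and summed libraries with an assumed variation of 0.1 or 0.2 (0.23, 0.15 and 0.12). Gckr passed in 8 of 20. It did not pass by DESeq2 (0.0737), with quantile-normalized log2(FPKM + 1) (0.0638), at a mean FPKM of at least 5 (0.0660), against a 1.2-fold change (0.0725), with summed libraries (0.0706) or with 1 library left out (0.0695 to 0.0757). Gpi1 passed with library totals (0.10) and on the TPM scale (0.13). Pfkl passed with library totals (0.18), with totals without the 20 most abundant genes (0.13), on the TPM scale (0.19) and without exercise replicate 2 (0.15; range with 1 library left out 0.0687 to 0.15). Pfkfb1 and Pfkfb3 did not pass in any alternative that tested them. Pfkfb1 changed sign without sedentary replicate 2 (−0.0493), exercise replicate 2 (−0.0342) or exercise replicate 3 (−0.0154), with a highest value of 0.0812. Pfkfb3 changed sign with library totals (0.0327), limma on log2(FPKM + 1) (0.0465) or log2(FPKM + 0.1) (0.0552) and on the TPM scale (0.0780), and was not tested at a mean FPKM of at least 5. The members called higher fell to 0 against a 1.2-fold change and with summed libraries, and no member was called lower in any alternative.

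Of all tested genes, DESeq2 called 1272 higher and 1240 lower, the test against a 1.2-fold change 239 and 414, and summed libraries 50 and 126 at an assumed variation of 0.1 and 5 and 18 at 0.2. With library totals the calls were 3536 and 1203, and on the TPM scale 3542 and 881. With limma on log2(FPKM + 1) 1081 were lower, and with a pseudocount of 0.1, 1028. Of the 86 other tested genes of the sugar-metabolism and related lists, 43 were higher and 10 lower with library totals. The number lower was 11 with limma on log2(FPKM + 1), 10 with a pseudocount of 0.1 and 8 on the TPM scale. The counts were 7 and 4 against a 1.2-fold change, 2 and 1 at an assumed variation of 0.1, and 1 and 1 at 0.2. Hk3 changed sign with limma on log2(FPKM + 1) (0.0096), log2(FPKM + 0.1) (0.0157) and log2(TPM + 1) (0.0347) and with 1 library left out (−0.164 to 0.0503, the latter without sedentary replicate 3). On the TPM scale Fbp1 (0.0269), Srebf1 (0.0251) and H6pd (0.0276) did. The causes were not tested. The 5 count ratios moved by less than the spread between libraries in all their alternatives.

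With the replicate number as a block, 1929 genes were higher and 1917 lower, and the same 4 members passed, Gckr with an adjusted p of 0.0497. Same-numbered libraries did not deviate together (correlations of −0.08 to −0.02), and no library correlated best with its own number. Depth limits Pfkfb1 and Pfkfb3 most, at 354 to 456 counts per library.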

Other observations

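Genes that respond to low oxygen, the setting in which Pfkfb3 is known to be induced, included 11 tested genes other than Pfkfb3. Of these, 5 were higher in exercise and 1 lower, where 19.1% of all tested genes were higher and 19.0% lower. The median log2 fold change of the 11 was 0.16 against −0.00062 over all tested genes. P4ha1, a collagen prolyl hydroxylase gene, rose 1.61-fold from 2.56 ± 0.0625 to 4.33 ± 0.105 FPKM, and Pdk1, a kinase that inhibits pyruvate dehydrogenase, rose 1.26-fold from 15.8 ± 0.307 to 21.0 ± 0.292 FPKM (SD, n = 3). Vegfa and Ero1l rose by 0.16 and 0.33 on the log2 scale. Ndrg1 fell 1.28-fold. The pentose phosphate genes had 2 of 10 higher and 2 lower, about the shares of all tested genes. Pgd fell 1.19-fold from 24.5 to 21.7 FPKM, Xylb rose 1.11-fold from 64.5 to 76.0 FPKM, Rpia rose 1.47-fold from 1.90 to 2.93 FPKM, and H6pd fell 1.06-fold, a call lost with library totals (log2 fold change −0.0034, adjusted p = 0.913).

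The tested gene closest to each member was sought by the distance between the log2 TMM-scaled values of the 6 libraries, each gene centred on its own mean. It was Cyp3a11 for Khk (distance 0.04), Faah for Slc2a2 (0.03), Cyp4f13 for Pklr (0.03) and LOC105244208 for Gckr (0.02). For the members that did not pass it was Cic for Gpi1 (0.02), Ddrgk1 for Pfkl (0.05), Snapc4 for Pfkfb1 (0.06) and Mipep for Pfkfb3 (0.04). With 6 libraries in 2 groups, many genes lie close to any small difference, so these neighbours are a description. Of the 12 pericentral hepatocyte markers 6 were higher and 3 lower, and of the 11 periportal ones 3 were higher and 6 lower. Their median log2 fold changes were 0.10 and −0.09. Among all tested genes, 19.1% were higher and 19.0% lower. Pericentral markers summed to between 6922 and 6972 FPKM in the sedentary and between 7674 and 7749 FPKM in the exercise libraries. The sums of the periportal markers lay between 5234 and 5293 FPKM and between 5508 and 5560 FPKM, although most of these markers that passed were lower. Stellate cell and fibroblast markers summed to between 86.6 and 89.6 FPKM and between 108 and 109.7 FPKM, cholangiocyte markers to between 71.6 and 73.6 and between 41.9 and 43.2 FPKM, and pancreatic acinar markers to between 18.7 and 20.0 and between 8.17 and 8.68 FPKM, in the same order. Cela1 alone made up 10.9 and 7.89 FPKM of the acinar means. Adipocyte, neutrophil, lymphocyte and skeletal muscle markers summed to at most 20.4 FPKM in any library, and pancreatic endocrine markers were not analysed here.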
